A study of Mus musculus with 59 samples.

Results

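The lysosomal genes described here are 41 genes of hydrolases, membrane proteins, the proton pump and a regulator, chosen by symbol for their known place in the lysosome. All 41 were found, by Ensembl identifier, among the 18088 genes measured, and all 41 passed the filter on low values. RNA was sequenced from the prefrontal cortex of 59 C57BL/6J mice, either wild type or heterozygous for the I48X allele of Dyrk1a, a gene for a protein kinase. From postnatal day 3 to day 24, a treatment of 3 weeks, the pups received vehicle, lithium or fluoxetine through the milk of their dams, and RNA was taken on day 25. The 6 combinations of genotype and treatment each held 5 males and 5 females, except that wild-type mice on fluoxetine were 4 males and 5 females. Lithium is a mood stabiliser and fluoxetine is an inhibitor of serotonin uptake. Which pups came from the same dam is not given, although a dam's treatment reaches her whole litter, and the p-values therefore measure only mouse-to-mouse spread.

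Lysosomes are acidic organelles in which hydrolases break down proteins, glycans, glycolipids and other material brought in by endocytosis and autophagy. A proton pump acidifies the lumen, and heavily glycosylated membrane proteins line it. Many lysosomal genes carry an E-box of the CLEAR type near their start, which the transcription factor TFEB can bind. Fluoxetine is a cationic amphiphilic drug, a class that collects in lysosomes and lowers the activity of the sphingomyelinase encoded by Smpd1 in the lumen. Loss of single hydrolases of this set causes neuronal storage diseases.

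RefSeq promoter windows on GRCm38.p6, which run from 250 bases before to 50 bases after each annotated start, were found for 37 of the 41 members in 42 windows. The motif TCACGTG, searched on both strands, was in a window of 13 of these 37 genes, or 35.1%, and in a window of 4.29% of 27025 genes in all. The longer palindrome TCACGTGA, which contains the shorter motif, was in a window of 7 of the 37. The core CACGTG was found for 15 of the 37 (40.5%), against 8.09% of all genes with a window. A window of Cln3, a lysosomal membrane protein, held the extended CLEAR palindrome, which was in windows of 0.37% of all genes. The 6 stretches below are shown because the drug results turn on Mcoln1, Ctsa, Neu1, Grn and Ctsd, and because Lamp1 held 4 copies. They run from 150 bases before to 20 bases after the start, 5′ to 3′, and capitals mark the longest motif found in the window.
Mcoln1 (chr8:3500369-3500538, plus strand): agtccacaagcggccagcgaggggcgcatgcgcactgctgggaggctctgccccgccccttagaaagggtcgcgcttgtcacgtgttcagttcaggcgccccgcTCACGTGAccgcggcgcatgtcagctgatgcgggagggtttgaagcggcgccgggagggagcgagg
Ctsa (chr2:164833623-164833792, plus strand): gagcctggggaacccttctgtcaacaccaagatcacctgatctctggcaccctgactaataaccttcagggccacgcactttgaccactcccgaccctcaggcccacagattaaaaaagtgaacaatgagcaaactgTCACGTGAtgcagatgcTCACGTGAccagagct
Ctsd (chr7:142387808-142387977, minus strand): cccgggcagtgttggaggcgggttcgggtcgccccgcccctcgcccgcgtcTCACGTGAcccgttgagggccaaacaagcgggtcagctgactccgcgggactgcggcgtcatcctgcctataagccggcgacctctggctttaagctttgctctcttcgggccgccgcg
Lamp1 (chr8:13159011-13159180, plus strand): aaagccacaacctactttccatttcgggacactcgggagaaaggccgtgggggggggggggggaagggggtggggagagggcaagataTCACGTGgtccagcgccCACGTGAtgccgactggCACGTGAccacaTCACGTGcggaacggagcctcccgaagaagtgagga
Neu1 (chr17:34931103-34931272, plus strand): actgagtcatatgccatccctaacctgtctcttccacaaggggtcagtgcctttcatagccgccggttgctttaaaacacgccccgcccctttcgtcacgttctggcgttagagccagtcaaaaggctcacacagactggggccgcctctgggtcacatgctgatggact
Grn (chr11:102430357-102430526, plus strand): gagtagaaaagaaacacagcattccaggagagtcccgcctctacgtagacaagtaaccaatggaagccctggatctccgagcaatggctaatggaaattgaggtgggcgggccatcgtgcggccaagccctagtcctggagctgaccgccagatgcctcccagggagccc
The palindrome TCACGTGA began 46 bases before the start in Mcoln1 and 99 bases before it in Ctsd. In Ctsa it occurred 13 bases before and 5 bases after the start. The 4 copies of TCACGTG in the Lamp1 window began 62, 45, 28 and 16 bases before the start. None of the 4 forms was in the windows of Neu1, Grn, Psap, Smpd1 or Tfeb.

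The level of the members in the cortex spanned a wide range. Levels are given as normalised counts, which are counts divided by a size factor of each library, and, where genes are compared, per kilobase of exon. Psap, the precursor of the saposins that help sphingolipid hydrolases, was highest at 13343 normalised counts per kilobase. It was followed by the proton pump accessory subunit Atp6ap1 at 4363, the membrane glycoprotein Lamp1 at 4099 and the aspartic protease Ctsd at 3769. The pump subunits Atp6v1a and Atp6v0d1 stood at 3651 and 3438, the sulfatase Ids at 2922 and the cysteine protease Ctsb at 2529. The lowest were the mannosidase Manba at 69.0, the regulator Tfeb at 38.6 and the sulfamidase Sgsh at 27.8. Sgsh was at the 27.2 percentile of all genes on this scale and Psap at the 99.7 percentile. Variation over the 59 libraries was smallest for Ppt1, a thioesterase, with a coefficient of variation of 2.29% in normalised counts. It was largest for Ids (17.9%), the iduronidase Idua (15.3%) and the sphingomyelinase Smpd1 (14.2%).

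The members did not move as 1 block across libraries. Over 820 pairs of members the median Pearson correlation of log2 levels across the 59 libraries was 0.03, with 120 pairs above 0.5 and 74 below -0.5. The pump subunit Atp6v0d1 and Ctsb had the highest correlation, at 0.91, and Idua and Smpd1 had the lowest, at -0.87. These correlations are a description, since the libraries share groups, normalisation and differences in tissue content.

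**Figure D1:**
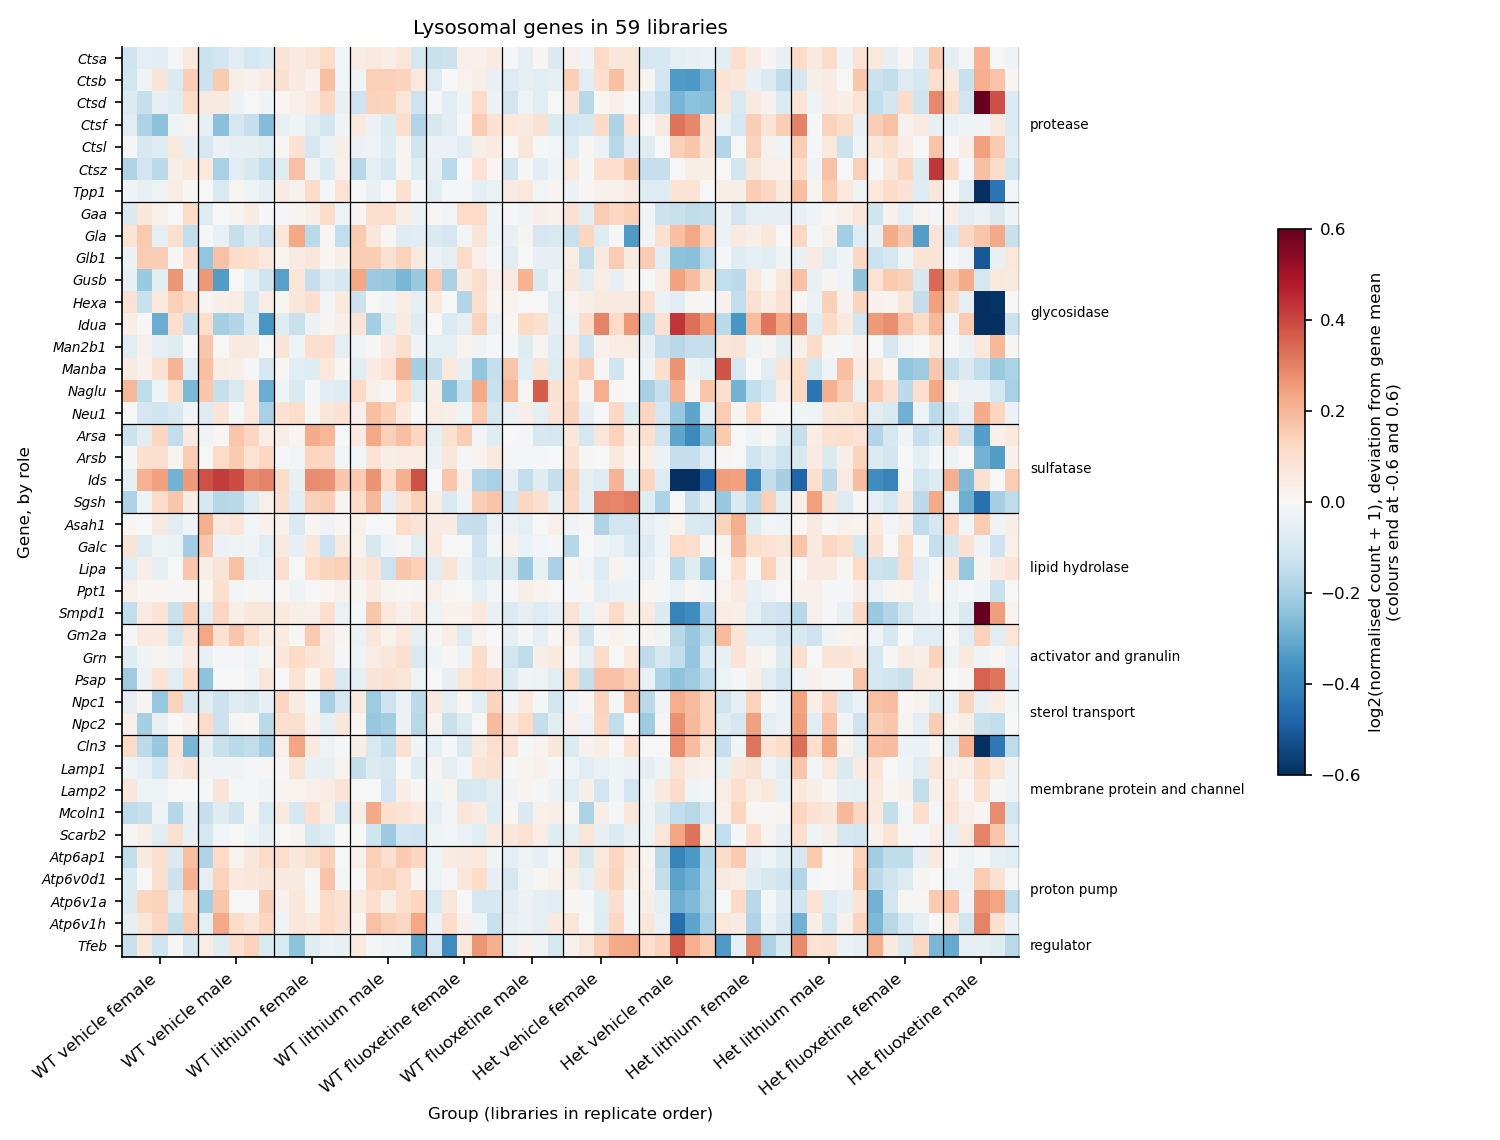
Each row is 1 of the 41 members and each column 1 of the 59 libraries, ordered by genotype, treatment and sex. Colour gives the log2 difference of a library from the mean of that gene, limited to 0.6 in either direction; single columns among the heterozygous fluoxetine and heterozygous vehicle males stand apart.

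Some libraries stood apart before any comparison was made. The recovered total was between 24391022 and 33842466 counts per library. The gene total of Dyrk1a, which adds both alleles, was 2326 ± 65.9 normalised counts (SD, n = 10) in heterozygous and 2232 ± 55.7 (SD, n = 10) in wild-type vehicle mice, so it does not check the genotype and groups are used as labelled. In heterozygous fluoxetine males this total was 2935 ± 812 (SD, n = 5), with values from 2368 to 4214. The next highest group maximum was 2530, in heterozygous lithium males. Heterozygous fluoxetine males 3 and 4 were outside the range of the other 57 libraries together for 9 members. Heterozygous fluoxetine male 3 was the highest or lowest of all 59 libraries for 15 members, and heterozygous vehicle male 3 for 13. The shares of all genes for which this held are not given here, so these counts do not set the members apart from other genes. The summed level of 11 olfactory bulb markers ran from 1268 to 39635 normalised counts. In heterozygous vehicle males the lowest, median and highest sums were 6700, 26108 and 39635, and in wild-type vehicle males they were 1268, 1597 and 4959. The summed level of 6 cortical excitatory neuron markers ran in the other direction, from 72549 to 137492 in the first group and from 144228 to 154909 in the second. None of the markers used was at 0 in any library. In bulk tissue, fewer cells of a type and less RNA per cell cannot be told apart.

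Mcoln1, the gene of the lysosomal calcium channel TRPML1, was higher under lithium on average over the genotypes. Averaged over genotypes, 4 of the 41 members rose and 0 fell under lithium, where 2.12% of all genes tested were called (1.16% higher). The 4 were Mcoln1, Ctsa, a carboxypeptidase that shields the galactosidase and sialidase, Neu1, that sialidase, and Grn, the precursor of granulins. The members stood above 0 in 31 of 41 cases, with a median log2 change of 0.04, beside 0.00 over all genes. Of the other 37 members, 0 passed the threshold, an adjusted p under 0.05 from limma over all genes tested. An unadjusted p under 0.05 was found for 13 of the 41 members and for 13.5% of all genes.

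Mcoln1 lies on chromosome 8 at 3500457 to 3515232 of GRCm38. In wild-type vehicle mice the lowest, median and highest normalised counts of Mcoln1 were 1712, 1794 and 1945, and in wild-type lithium mice 1798, 2008 and 2262. In heterozygous vehicle mice they were 1692, 1853 and 2032, and in heterozygous lithium mice 1938, 2037 and 2207. The lithium mice were thus shifted upwards in both genotypes, with overlap of the groups. All 10 lithium mice of each genotype lay above the vehicle mean of their own genotype and sex. The log2 change of Mcoln1 averaged over genotypes was 0.14 ± 0.03 (SE; 95% interval 0.09 to 0.19), with an adjusted p of 0.000622 by limma and 0.00053 by edgeR on the recovered counts. Within each genotype the change was 0.14 ± 0.04, with an adjusted p of 0.0612 in heterozygous and 0.0904 in wild-type mice, so it did not pass within a genotype by limma. In heterozygous mice edgeR gave an adjusted p of 0.0483. The lithium effect on Mcoln1 in heterozygous mice minus that in wild-type mice was -0.00 ± 0.05 (95% interval -0.11 to 0.10).

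The other 3 called members had smaller margins. Ctsa was at 1903 ± 79.9 normalised counts (SD, n = 10) in wild-type vehicle mice, 2056 ± 86.0 in wild-type lithium mice, 1988 ± 104 in heterozygous vehicle mice and 2053 ± 94.4 in heterozygous lithium mice. Its averaged log2 change was 0.08 ± 0.02 (SE), with an adjusted p of 0.0444, and 9 of 10 wild-type and 6 of 10 heterozygous lithium mice lay above their vehicle mean. The exons of Ctsa share 13.5% of their bases with Pltp and 8.82% with Neurl2, both on the opposite strand, and whether the counting used strand is not given in the sources used here.
Neu1 was at 1330.1 ± 77.9 in wild-type vehicle, 1449 ± 58.1 in wild-type lithium, 1338 ± 137 in heterozygous vehicle and 1420.4 ± 63.3 in heterozygous lithium mice (SD, n = 10 each). All 10 wild-type lithium mice and 7 of 10 heterozygous ones were above their vehicle mean for Neu1. Its averaged log2 change was 0.11 ± 0.03 with an adjusted p of 0.0471 by limma and 0.0501 by edgeR. For Grn the means were 1463 ± 34.9 and 1519.8 ± 67.2 in wild-type vehicle and lithium mice, and 1421 ± 106 and 1509 ± 61.4 in heterozygous ones. Its averaged change was 0.07 ± 0.02 with an adjusted p of 0.0485, and 7 of 10 wild-type and 6 of 10 heterozygous mice were above their vehicle mean. These 3 calls sat close to the threshold: leaving out 1 library at a time ended that of Ctsa in 30 of 40 cases, that of Neu1 in 25 and that of Grn in 30, while that of Mcoln1 was kept in all 40, with adjusted p values from 0.00041 to 0.0015.

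**Figure D2:**
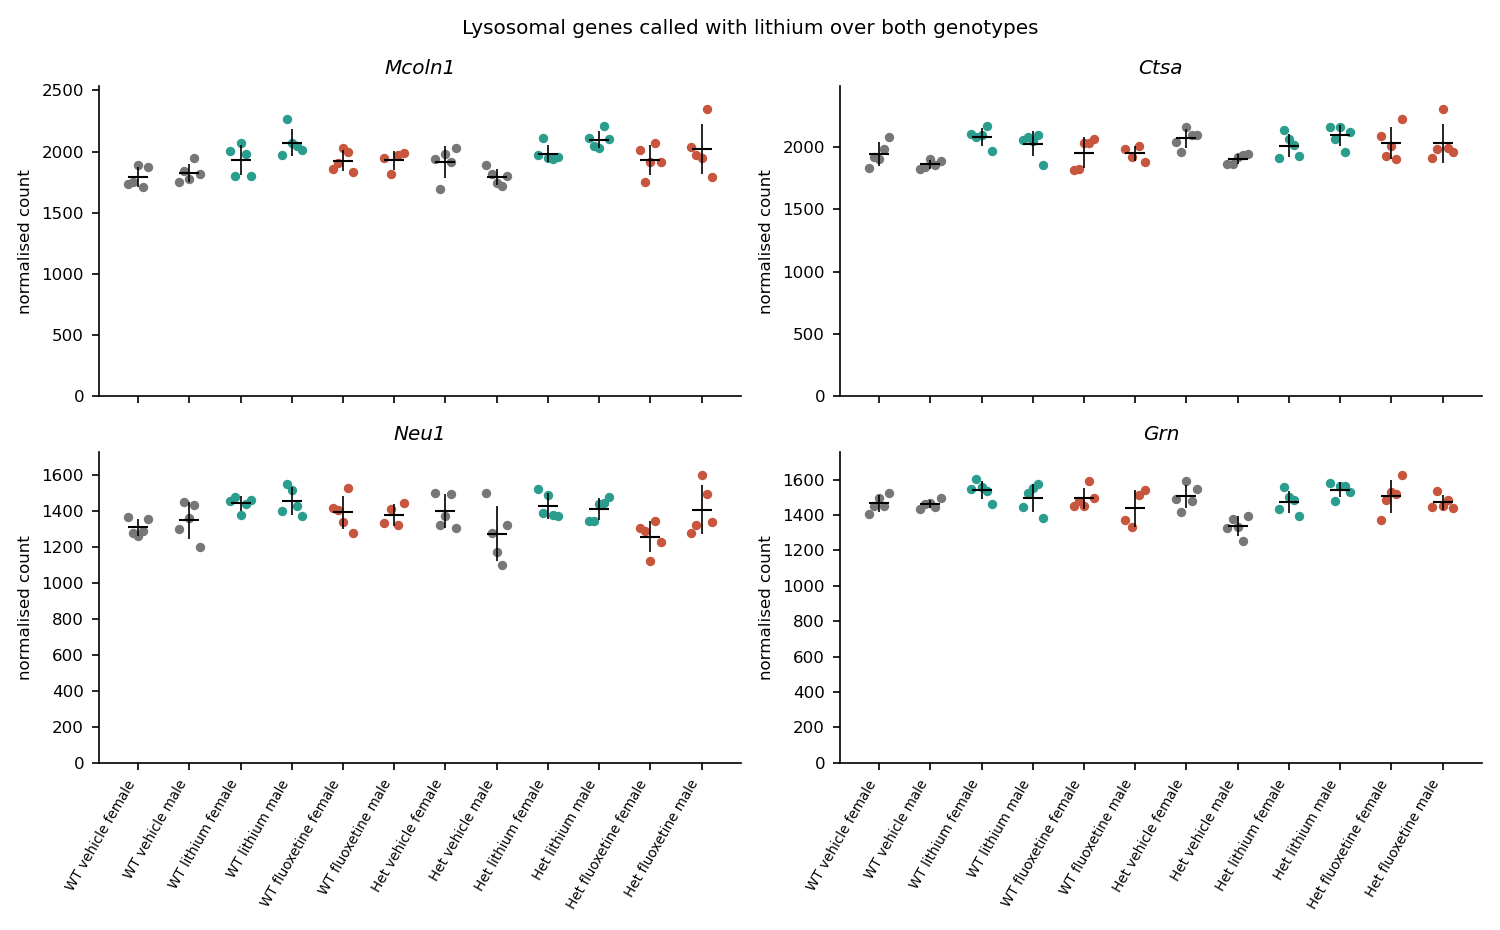
Normalised counts of Mcoln1, Ctsa, Neu1 and Grn are plotted for each mouse (points) by genotype, treatment and sex, with bars for the mean and SD of each group. For Mcoln1 the heterozygous lithium mice lie between 1938 and 2207 and the heterozygous vehicle mice between 1692 and 2032.

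Within each genotype, 0 of 41 members were called under lithium, where 0.497% of all genes were called in heterozygous and 0.162% in wild-type mice. In heterozygous mice 11 members had an unadjusted p under 0.05, where 10.4% of all genes did, and edgeR called 1 (Mcoln1). In wild-type mice 5 members had one, where 6.86% of all genes did, and edgeR called 0. After Mcoln1, the smallest p values in heterozygous mice belonged to Grn (0.09 ± 0.03, adjusted p 0.185) and the ceramidase Asah1 (0.10 ± 0.03, adjusted p 0.189). In wild-type mice they belonged to Ctsa (0.11 ± 0.03, adjusted p 0.169) and Neu1 (0.12 ± 0.04, adjusted p 0.386). Tfeb had log2 differences of -0.17 ± 0.07 (adjusted p 0.331) and -0.07 (adjusted p 0.995) in heterozygous and wild-type mice. Ctsd had 0.13 ± 0.06 (adjusted p 0.434) in heterozygous mice and 0.05 in wild-type mice. The differences of Lamp1 (0.03 and -0.02), Atp6v0d1 (0.04 and 0.03), Psap (0.03 and 0.06), Smpd1 (0.05 and 0.02) and the cholesterol transporter Npc1 (-0.04 and 0.00) were small in both genotypes and not called. Asah1 in wild-type mice had -0.02 and Grn 0.05, also not called. The difference between genotypes in the lithium effect was called for 0 of 41 members and 0% of all genes, with the smallest p values for Asah1 (0.12 ± 0.05), Sgsh (-0.18 ± 0.08), Galc, a galactosidase (0.09 ± 0.05), Gm2a, a ganglioside activator protein (0.08 ± 0.05), and the mannosidase Man2b1 (0.06 ± 0.04). Each of these had an adjusted p of 1, and by edgeR 0 members were called. By limma 2 members had an unadjusted p under 0.05, where 2.78% of all genes did.

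Under fluoxetine few members were called when both sexes were compared together. In heterozygous mice 1 of 41 members rose (Ctsd) and 1 fell (Tfeb), where 4.27% of all genes were called, 2.21% higher and 2.06% lower. With only the groups compared in the fit, 0 members were called there, where 0.0112% of all genes were. The members were above 0 in 24 cases and below in 17, with a median log2 change of 0.02 beside 0.00 for all genes. In wild-type mice 0 of 41 were called by limma and by edgeR, where limma called 0.447% of all genes. An unadjusted p under 0.05 was found there for 7 members and for 17.5% of all genes. There 21 members were above and 20 below 0, with a median of 0.00.

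For Ctsd the lowest, median and highest normalised counts were 6570, 7364 and 8414 in heterozygous vehicle mice and 7191, 8057 and 12646 in heterozygous fluoxetine mice. The groups overlapped, and 7 of 10 treated mice were above the vehicle mean of their sex. The log2 change was 0.20 ± 0.06 (SE; 95% interval 0.09 to 0.32) with an adjusted p of 0.0351. Without heterozygous fluoxetine males 3 and 4, the change of Ctsd was 0.09 with an adjusted p of 0.48. In wild-type mice Ctsd was at 7883 ± 417 under vehicle (SD, n = 10) and 7839 ± 349 under fluoxetine (SD, n = 9), a change of -0.01 ± 0.06 (SE). Tfeb is a rare transcript on chromosome 17, at 47737030 to 47792419. It had lowest, median and highest counts of 157, 171 and 199 in heterozygous vehicle mice and 125, 147 and 179 in heterozygous fluoxetine mice. It was below the vehicle mean in 9 of 10 treated mice, with a log2 change of -0.23 ± 0.07 (95% interval -0.37 to -0.09) and an adjusted p of 0.0418. Without the same 2 males the change of Tfeb was -0.25 with an adjusted p of 0.118. Wild-type mice had 153 ± 10.6 under vehicle and 154 ± 19.9 under fluoxetine. Leaving out any 1 of 10 of the 20 libraries ended the call of Ctsd, and any 1 of 10 ended that of Tfeb.

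Smpd1, whose enzyme is the lysosomal target of cationic amphiphilic drugs named above, was not called in either genotype. Its lowest, median and highest normalised counts were 2109, 2784 and 3023 in heterozygous vehicle mice and 2387, 2713 and 5329 in heterozygous fluoxetine mice. In wild-type mice they were 2521, 2902 and 3112 under vehicle and 2639, 2702 and 2918 under fluoxetine. The highest value stood alone, and the medians under fluoxetine were slightly below those under vehicle. The log2 difference was 0.12 ± 0.07 (adjusted p 0.249) in heterozygous mice and -0.06 ± 0.07 (95% interval -0.19 to 0.08) in wild-type mice. Without heterozygous fluoxetine males 3 and 4 it was -0.00 (adjusted p 0.994) in heterozygous mice.

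Within a genotype, the other members named in each drug comparison were not called under fluoxetine. Mcoln1 had log2 differences of 0.09 ± 0.04 in both genotypes (adjusted p 0.123 and 0.194 in heterozygous and wild-type mice), and 8 of 10 heterozygous and 8 of 9 wild-type mice were above their vehicle mean. Averaged over genotypes Mcoln1 rose by 0.09 ± 0.03 (adjusted p 0.0407) and was the 1 member of 41 called, where 3.09% of all genes were called, 1.45% higher. With only the groups compared in the fit the averaged change of Mcoln1 was 0.09 with an adjusted p of 0.0885 by limma. Without the 2 heterozygous fluoxetine males it was 0.08 with an adjusted p of 0.0869. With the olfactory bulb marker mean as a covariate and without these males it was 0.10 with an adjusted p of 0.00536. The lithium and fluoxetine comparisons share the vehicle mice, so their values are given side by side only. In heterozygous mice Sgsh, which shares 21.9% of its exon bases with Card14 on the opposite strand, had -0.17 ± 0.06 (adjusted p 0.0778). There Grn had 0.07 ± 0.03, Asah1 0.08 ± 0.03, Psap 0.08 ± 0.05, Lamp1 0.04 ± 0.03, Atp6v0d1 0.05 ± 0.04 and Npc1 -0.02 ± 0.05. In wild-type mice the smallest p values were those of the cysteine protease Ctsf (0.15 ± 0.05, adjusted p 0.104), the acid lipase Lipa (-0.12 ± 0.04, adjusted p 0.133) and Ids (-0.28 ± 0.10, adjusted p 0.138). There Asah1 had -0.06 ± 0.03, Psap 0.03 ± 0.05, Lamp1 0.03 ± 0.03, Atp6v0d1 -0.04 ± 0.04, Npc1 0.06 ± 0.05, Grn 0.00 ± 0.03 and Tfeb 0.01 ± 0.07. The fluoxetine effect in heterozygous minus that in wild-type mice was called for 0 of 41 members and 0% of all genes by limma. By edgeR 0 members were called. By limma 12 members had an unadjusted p under 0.05, where 21.9% of all genes did. The smallest p values were those of Ids (0.42 ± 0.14, adjusted p 0.111), Asah1 (0.14 ± 0.05, adjusted p 0.111), Cln3 (-0.27 ± 0.09, adjusted p 0.114), Sgsh (-0.24 ± 0.08, adjusted p 0.116) and Ctsd (0.21 ± 0.08, adjusted p 0.141).

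**Figure D3:**
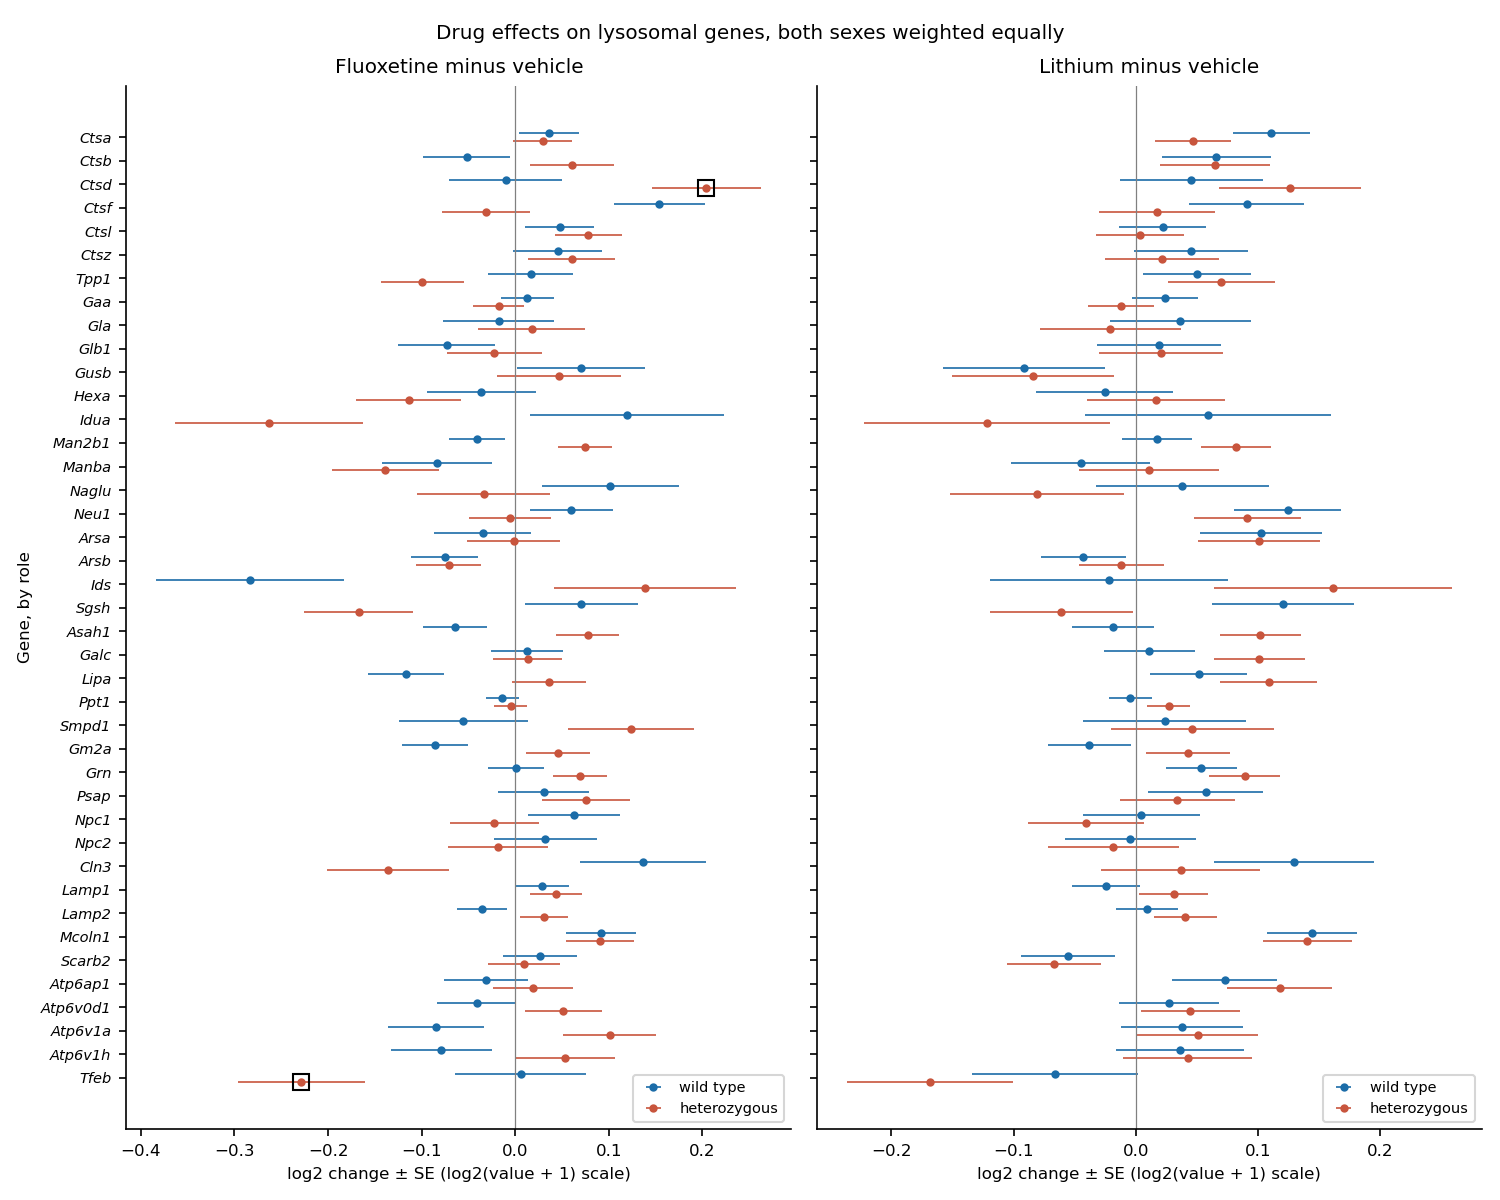
Log2 change and SE of each of the 41 members under fluoxetine and lithium against vehicle, in wild-type and heterozygous mice, with squares for called members. Ctsd (0.20) and Tfeb (-0.23) under fluoxetine in heterozygous mice are the 2 called values, and Mcoln1 stands at 0.14 under lithium in both genotypes.

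Compared directly, the drugs differed for 1 of 41 members in heterozygous mice, where 3.28% of all genes were called, 1.7% in the lower direction. Tpp1, a tripeptidyl peptidase, was lower under fluoxetine than under lithium, with a log2 difference of -0.17 ± 0.04 (adjusted p 0.0279). Its means were 1736 ± 265 and 1930.5 ± 91.2 normalised counts (SD, n = 10 each), and its lowest value under fluoxetine, 1180.03, came from heterozygous fluoxetine male 3. Without the 2 males 0 members were called, where 0.117% of all genes were. With only the groups compared 0 members and 0% of all genes were called. In wild-type mice 0 of 41 were called (0.156% of all genes), and 29 of 41 members were lower under fluoxetine, with a median of -0.04. Lipa had the smallest p there (-0.17 ± 0.04, adjusted p 0.0607).

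The 2 heterozygous fluoxetine males that stood apart did so in opposite directions for different hydrolases. Smpd1 was at 5329 in male 3 and 3323 in male 4, against 2624 to 2829 in the other 3 males of the group. Ctsd was at 12646 and 10426 (others 7378 to 8585), Psap at 46686 and 45562 (others 35279.5 to 36939.9), and Atp6v1a at 18601 and 18225 (others 13917 to 17424). These 4 members were above all 57 other libraries in both males. The sulfatase Arsb (2863 and 2766), Cln3 (197 and 223), the hexosaminidase Hexa (809 and 817), Idua (128 and 214) and Tpp1 (1180.03 and 1347) were below all 57 others in both. A further 7 members were above and 3 below all others in 1 of the 2 males only, and 22 were within the range of the others. The share of all genes in each of these places is not given here, so the counts do not set the members apart.

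By sex, the calls under fluoxetine were in the males, which hold these 2 mice. In heterozygous males 20 of 41 members were called under fluoxetine, 13 higher and 7 lower, where 37.6% of all genes were called (20.5% higher and 17% lower). Smpd1 (0.41 ± 0.09), Ctsd (0.39 ± 0.08), Psap (0.30 ± 0.07) and Ctsb (0.28 ± 0.06) were among the higher ones, and Idua (-0.58 ± 0.14) and Tpp1 (-0.23 ± 0.06) among the lower ones. Ids (0.50 ± 0.14), Man2b1 (0.17), Atp6v0d1 (0.21) and Atp6v1a (0.25) complete the 10 of smallest p. In heterozygous females 0 of 41 were called, where 0.38% of all genes were, and the smallest p was that of the glucosidase Gaa (-0.12 ± 0.04, adjusted p 0.117). Without heterozygous fluoxetine males 3 and 4, 0 members were called in males, where 2.44% of all genes were. With only the groups compared in the fit, 0 members and 0% of all genes were called in males. The effect in females minus that in males was called for 17 members, 4 above and 13 below 0, where 34.3% of all genes were called (15.3% above and 19% below 0). Without these 2 males this difference was still called for 12 members, where 21.5% of all genes were. With the olfactory bulb covariate it was called for 0, where 0.871% were. With only the groups compared it was called for 7, where 15.2% were. In heterozygous vehicle males the mean log2 level of the bulb markers, relative to all libraries, ran from -0.18 to 2.27. In heterozygous fluoxetine males it ran from -1.62 to 1.28. The part of tissue content was not tested beyond the covariate.

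**Figure D4:**
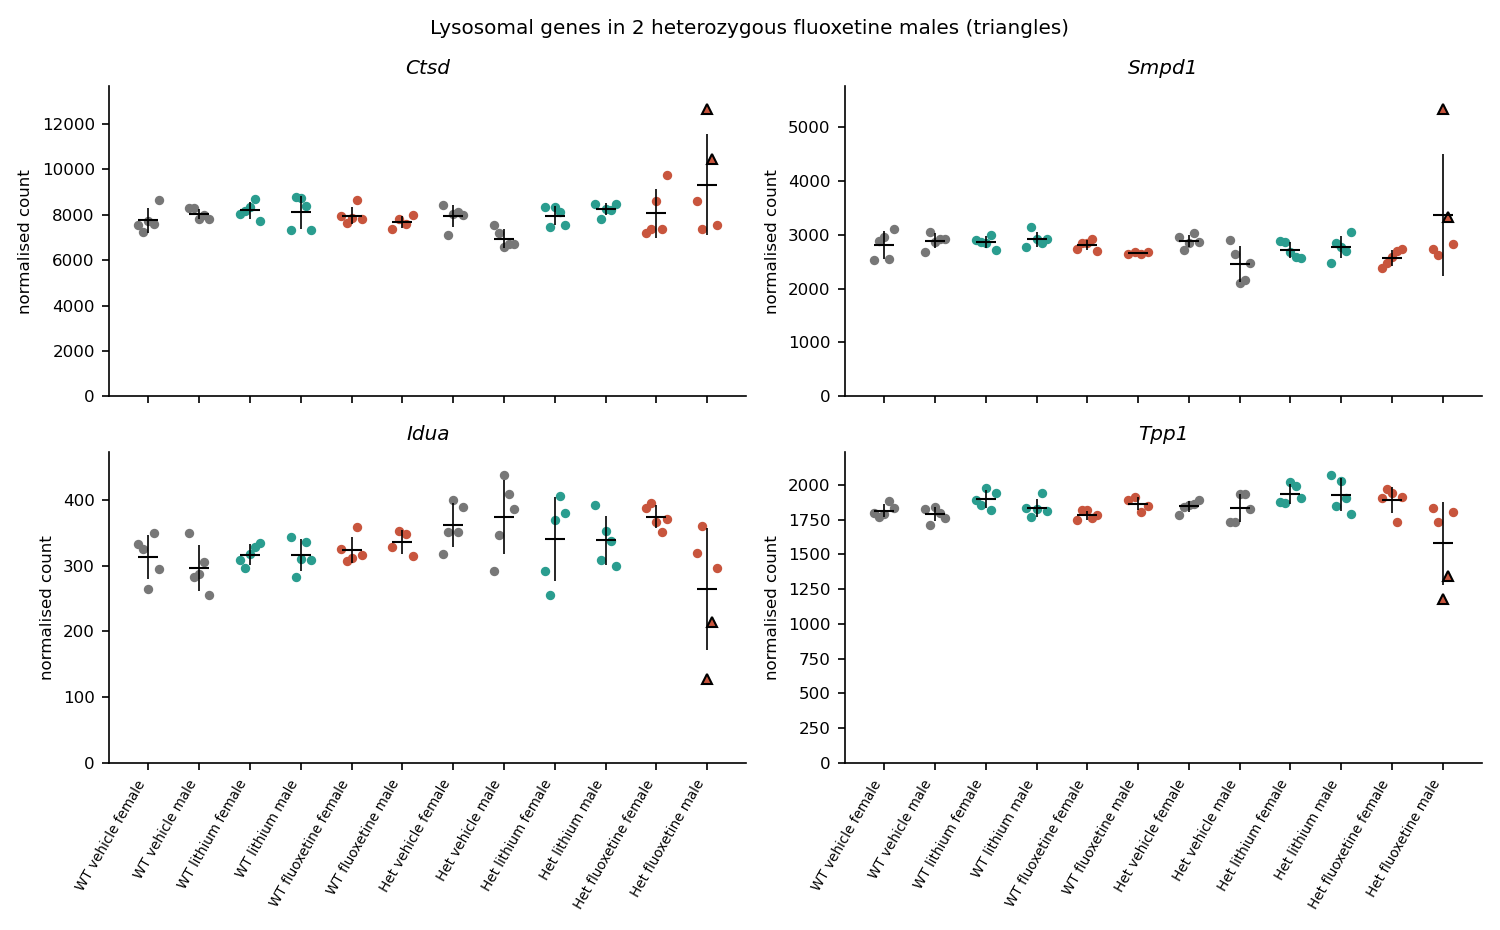
Normalised counts of Ctsd, Smpd1, Idua and Tpp1 for each mouse by genotype, treatment and sex, with the mean and SD of each group and triangles for heterozygous fluoxetine males 3 and 4. The 2 triangles lie above all other mice for Ctsd and Smpd1 and below them for Idua and Tpp1.

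Under vehicle, heterozygous mice differed from wild-type mice in 5 of 41 members, where 13.1% of all genes were called, 6.03% higher and 7.12% lower. Ctsf was higher (0.19 ± 0.05, adjusted p 0.0223). Ids (-0.43 ± 0.10, adjusted p 0.0163), Gm2a (-0.13 ± 0.03, adjusted p 0.0223), Asah1 (-0.10 ± 0.03, adjusted p 0.0416) and Arsb (-0.10 ± 0.03, adjusted p 0.0495) were lower. For Ids, on the X chromosome at 70343069 to 70365084, the 5 heterozygous vehicle males had 15588, 13546, 7310, 7567 and 10232 normalised counts. The 5 wild-type vehicle males had 18572, 19112, 18693, 17391 and 17523, and did not overlap them. Females of the 2 genotypes were at 14616 ± 1332 and 15180 ± 2349 (SD, n = 5 each) for Ids, and overlapped. Without heterozygous vehicle male 3, or without male 4, 0 members were called in the comparison of both sexes, and without male 1 the count was 16. With only the groups compared 0 members were called, where 0.776% of all genes were.
In males alone 19 of 41 members were called under vehicle, 4 higher and 15 lower, where 36.7% of all genes were (16.7% higher and 20% lower). The 10 of smallest p include Ids (-0.82 ± 0.14), Gm2a (-0.24 ± 0.05), Ctsf (0.31 ± 0.07), Man2b1 (-0.18 ± 0.04), Atp6v0d1 (-0.24 ± 0.06) and Atp6ap1 (-0.24 ± 0.06), with limma adjusted p values from 0.00037 to 0.00192. Without heterozygous vehicle male 4 the count was 10, and with only the groups compared it was 11, where 25.4% of all genes were called. In females 0 of 41 members and 0% of all genes were called. The female minus the male difference was called for 9 members, all above 0, where 16% of all genes were called, 9.7% above 0. With only the groups compared it was called for 0 members and 0% of all genes.

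The olfactory bulb markers moved with these genotype differences. In the vehicle comparison 8 of 11 bulb markers were called higher in heterozygous mice, with a median log2 difference of 1.60, and in males 11 of 11 with a median of 3.37. Across the 59 libraries Ids had a correlation of -0.81 with the mean level of the bulb markers and 0.93 with that of the cortical excitatory neuron markers, and Npc1 had 0.69 with the bulb markers. With the bulb marker mean as a covariate 0 of 41 members were called in the vehicle comparison, where 0.0112% of all genes were. Ids was then at -0.22 (adjusted p 0.621), Ctsf at 0.11 (adjusted p 0.621) and Gm2a at -0.08 (adjusted p 0.623). Over the members, 8 had a correlation above 0.5 with the bulb markers and 11 below -0.5. These are descriptions over libraries that share groups and tissue content. The lithium result for Mcoln1 had values of 0.13 to 0.14 under each of 12 other settings, the bulb covariate included, with adjusted p values from 1.03e-05 to 0.000652. Under lithium 0 of 11 bulb markers were called on average over genotypes, with a median of -0.07.

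**Figure D5:**
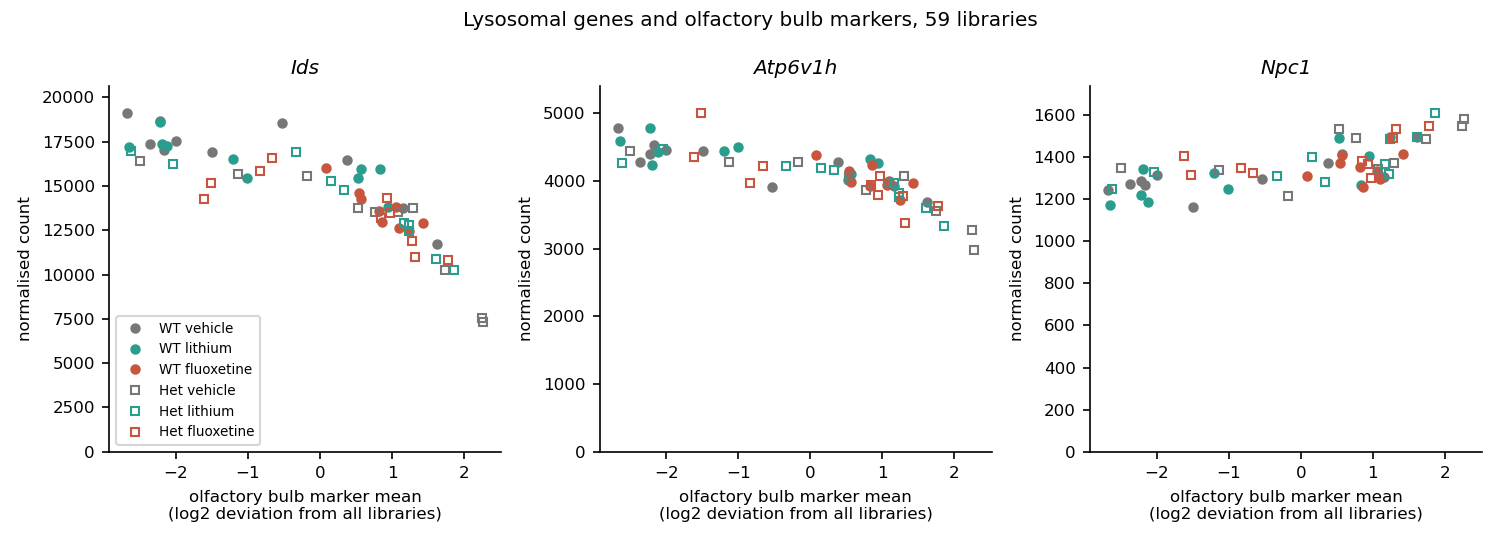
Normalised counts of Ids, Atp6v1h and Npc1 in each of the 59 libraries against the mean log2 level of the 11 olfactory bulb markers, relative to the mean over libraries. Ids falls with the bulb markers (r = -0.81) and Npc1 rises with them (r = 0.69).

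Over both sexes, the genotype comparisons within the drug groups called 0 members. Under lithium 0 of 41 members were called, where 0.0112% of all genes were. An unadjusted p under 0.05 was found there for 7 members and for 18.3% of all genes. The smallest p values were those of the pump subunit Atp6v1h (-0.14 ± 0.05, adjusted p 0.233), Galc (0.10 ± 0.04, adjusted p 0.233) and Ids (-0.25 ± 0.10, adjusted p 0.234). Under fluoxetine 0 of 41 were called, again where 0.0112% of all genes were. An unadjusted p under 0.05 was found there for 5 members and for 14.7% of all genes. Arsb (-0.09 ± 0.04, adjusted p 0.237), Sgsh (-0.15 ± 0.06, adjusted p 0.256) and the cathepsin Ctsz (0.12 ± 0.05, adjusted p 0.265) came first. By edgeR 0 members were called in both. In males under fluoxetine 1 of 41 members was called, Tpp1 (-0.26 ± 0.07, limma adjusted p 0.0208), where 9.05% of all genes were called, 3.84% lower. Without heterozygous fluoxetine males 3 and 4, or with only the groups compared, 0 members and 0% of all genes were called there. Averaged over treatments, 12 of 41 members were called, where 21.4% of all genes were, 8.97% higher and 12.4% lower. Ctsz, Ctsf and Npc1 were higher by 0.09 to 0.10. Arsb (-0.09 ± 0.02), Ids (-0.23 ± 0.06), Atp6v1h (-0.10 ± 0.03), Gm2a (-0.06), Atp6ap1 (-0.08), Atp6v0d1 (-0.07), Gaa (-0.05), Arsa (-0.08) and the galactosidase Glb1 (-0.08) were lower. With the bulb covariate 0 of 41 members were called, where 0.737% of all genes were. Of the exon bases of Arsa, 19.8% lie opposite C230037L18Rik.

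Under lithium in heterozygous males 5 of 41 members rose and 0 fell, where 0.916% of all genes were called, 0.542% higher. These were Grn (0.21 ± 0.04, adjusted p 0.00876), Mcoln1 (0.23 ± 0.05, adjusted p 0.0248), Atp6ap1 (0.25 ± 0.06, adjusted p 0.0374), Man2b1 (0.16 ± 0.04, adjusted p 0.0443) and Ctsb (0.24 ± 0.06, adjusted p 0.0481), all by limma. Ctsb shares 16.3% of its exon bases with Fdft1 on the opposite strand. Grn was at 1253 to 1396 normalised counts in the 5 heterozygous vehicle males and at 1477 to 1581 in the 5 lithium males, with no overlap. In females it was at 1505 ± 66.6 under vehicle and 1475 ± 61.5 under lithium (SD, n = 5 each), with overlap. Without heterozygous vehicle male 4, 0 members were called in males. With only the groups compared 0 members were called in males, where 0.00559% of all genes were. In heterozygous females 0 were called (0.274% of all genes), and Gaa had the smallest p (-0.15 ± 0.04, adjusted p 0.0625). The bulb marker sums were 6700 to 39635 normalised counts in the heterozygous vehicle males and 1933 to 28447 in the heterozygous lithium males. The part of tissue content in these values was not tested beyond the covariate. With it 3 members were called in males, where 0.38% of all genes were. The effect in females minus that in males was called for 5 members, all below 0, where 3.07% of all genes were called, 2.28% below 0. With only the groups compared it was called for 0 members, where 0.0112% of all genes were.

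Lists of other genes of the same pathways were set beside the members. Of 18 genes of sterol synthesis and uptake, which lysosomal cholesterol feeds back on, 7 fell and 0 rose under fluoxetine in wild-type mice, with a median log2 change of -0.26, where 0.447% of all genes were called. In the same comparison 0 of 11 olfactory bulb markers were called, with a median log2 difference of 1.77. With their mean as a covariate 1 of the 18 fell, where 0.184% of all genes were called, and the median was -0.16. Without heterozygous fluoxetine males 3 and 4 in the fit 14 fell, where 2.92% of all genes were called. The leading ones were Stard4, a sterol carrier (-0.47 ± 0.06, adjusted p 8.41e-06), and the enzymes Cyp51 (-0.35 ± 0.06, adjusted p 0.0049) and Idi1 (-0.33 ± 0.07, adjusted p 0.00984). With the covariate Stard4 was at -0.38 (adjusted p 0.00137), Cyp51 at -0.27 (adjusted p 0.0762) and Idi1 at -0.27 (adjusted p 0.0875). In heterozygous mice 4 of 18 fell under fluoxetine, where 4.27% of all genes were called, with a median of -0.11 and Stard4 at -0.31 ± 0.06 (adjusted p 0.00268). Without heterozygous fluoxetine males 3 and 4, 3 of 18 fell there, where 0.425% of all genes were called. With the covariate 6 did, where 6.52% were called. Under lithium averaged over genotypes 5 of 18 fell, where 2.12% of all genes were called, with Stard4 at -0.19 ± 0.04 (adjusted p 0.00571). Npc1 and Npc2, the lysosomal cholesterol exporters among the members, were not called in any of these comparisons.
Of 23 other lysosomal membrane proteins, 1 rose under lithium averaged over genotypes: Slc38a9, an amino acid transporter that signals to mTORC1 (0.11 ± 0.02, adjusted p 0.00199). Under fluoxetine in heterozygous mice 4.27% of all genes were called. There 2 of 24 other lysosomal hydrolases and cofactors rose, among them the protease Ctss (0.23 ± 0.05, adjusted p 0.0106). Among the 23 other membrane proteins Cd68 rose (0.26 ± 0.08) and the channel Tpcn1 fell (-0.26 ± 0.06). Atp6v1b2 rose (0.25 ± 0.08) among 14 other proton pump subunits. Of 21 autophagy genes Optn (0.21 ± 0.05) and Uvrag (0.27 ± 0.08) rose there. The 6 calls named here come from the comparison in which heterozygous fluoxetine males 3 and 4 stood apart. Without them none of the 6 was called, where 0.425% of all genes were. Their changes were then 0.16 for Ctss, 0.20 for Cd68, -0.10 for Tpcn1, 0.11 for Atp6v1b2, 0.14 for Optn and 0.10 for Uvrag. The adjusted p values ran from 0.129 to 0.592. In the 4 drug comparisons within a genotype, 0 of 17 genes of TFEB and mTORC1 regulation, 0 of 12 sorting genes and 0 of 12 microglia markers were called. Between genotypes under vehicle, 4 of 14 other pump subunits were lower in heterozygous mice, among them Atp6ap2 (-0.18 ± 0.06, adjusted p 0.0324), and 7 of 18 sterol genes were lower, with a median of -0.17, where 7.12% of all genes were lower. With the bulb covariate 0 of either list were called there, where 0.0112% of all genes were.

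The promoter motif was set beside the drug values as a description. Under fluoxetine in heterozygous mice 7 of 13 members with the motif and 14 of 24 without it were above 0, and in wild-type mice 7 of 13 and 13 of 24 were. Under lithium in heterozygous mice 9 of 13 with the motif and 18 of 24 without it were above 0, and in wild-type mice 12 of 13 and 14 of 24 were. Averaged over genotypes 12 of 13 with the motif were above 0 under lithium, with a median of 0.04, and 16 of 24 without it, with a median of 0.03. The 4 members without a window (Asah1, Atp6v1h, Ctsb and Npc1) are not in these counts, which were not tested. Mcoln1 and Ctsa, called under lithium, are among the 13, and Neu1 and Grn, also called, are not.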

How the data were processed

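Polyadenylated RNA of the prefrontal cortex of 59 mice was sequenced from stranded libraries. The submitters' processing notes list Salmon 0.11.2, DESeq2 1.19.11, R 3.6.0 and the GRCm38 build without saying which step each served. The authors deposited 1 table with a normalized signal per gene and library, which is counts divided by a size factor of the library. The smallest step between values gave whole reads in each library for 100% of values, within a tolerance of 0.01, although in 3 libraries that step lay so near 1 that it shows little. Symbols were matched by Ensembl identifier for 18077 of 18088 genes. The log2 of the value plus 1 was used, a scale on which changes of low genes look smaller, for the 17901 genes at 10 or more in at least 4 libraries. A linear model with 12 group means and 47 residual degrees of freedom was fitted to every library with limma 3.58.1 (R 4.3.3), with a trend on the mean. The spread was thus 1 estimate per gene for all groups, although it differed between them. The highest chi-square per gene between counts of replicate pairs was 87.3 in heterozygous fluoxetine males and 8.9 in wild-type fluoxetine males. Comparisons over both sexes give each sex the same weight. P-values received Benjamini-Hochberg adjustment over all genes within each of 35 comparisons, at a threshold of 0.05. The steps were tested on simulated data, with changes set in heterozygous fluoxetine mice. Of 100 genes changed 1.25-fold 59% were recovered, and of 100 changed 1.5-fold 68% were, with 5 false calls. edgeR 4.0.16 on the recovered counts, other filters and normalisations, array weights, a replicate block, a covariate of olfactory bulb markers and left-out libraries were alternatives, and the bulb covariate without 2 libraries, like the counts of pathway genes with the covariate or without these libraries, was added after the data were seen. Genes are named by a rule: called members up to 10 per comparison, the 3 of smallest p where fewer than 3 were called, 10 members of set roles in each drug comparison, and up to 3 genes per pathway list. The members and lists were chosen with earlier results of these data known. Depth ran from 24391022 to 33842466 counts per library and was not balanced over the groups. It was 31240013 to 33842466 in heterozygous lithium males and 26275221 to 30426178 in wild-type lithium males. The number of mice limits the precision, and in the drug comparisons so does the number of litters, which is not given. Results of some genes of the list of other lysosomal hydrolases are not reported here.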

Additional observations from a re-analysis of the deposited data

Results flagged for a closer look

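Within the groups of 4 or 5 mice, 288 sets of values were examined for a mouse far from the others (23 members and the member mean), and 16 held one, where chance gives about 1 in 20. In normalised counts, heterozygous fluoxetine male 3 stood apart for Smpd1 (5329), Ctsa (2306) and Glb1 (406), and heterozygous fluoxetine female 4 for Tpp1 (1730.53). Among heterozygous lithium mice, female 2 stood apart for Mcoln1 (2109), male 1 for Arsa (632) and male 5 for Psap (41065). Among heterozygous vehicle mice, male 1 stood apart for Gaa (4883), and female 2 for Psap (33174) and for the mean log2 deviation over the 41 members (-0.0284). Among wild-type mice the values were Atp6v1h in fluoxetine male 4 (4240.4), Gm2a in lithium female 3 (1951), Tfeb in lithium female 2 (130.05), Tfeb and Ctsa in lithium male 5 (123 and 1855), and the member mean in vehicle male 5 (-0.0306).

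The effect in females minus that in males passed limma's test of the difference for 17 members under fluoxetine in heterozygous mice, where 34.3% of all genes did. Log2 differences below 0 were those of Ids (-0.72), Smpd1 (-0.58), Ctsb (-0.44), Psap (-0.44), Atp6v1h (-0.39), Ctsd (-0.38), Atp6ap1 (-0.33), Atp6v0d1 (-0.33), Atp6v1a (-0.30), Neu1 (-0.30), Arsa (-0.29), Gaa (-0.20) and Man2b1 (-0.20). Those above 0 were Idua (0.63), Cln3 (0.37), Ctsf (0.28) and Tpp1 (0.27). Under lithium in heterozygous mice 5 members differed between the sexes, where 3.07% of all genes did: Sgsh (-0.42), Ctsb (-0.36), Psap (-0.33), Gaa (-0.27) and Grn (-0.24). The genotype difference under vehicle differed between the sexes for 9 members, where 16% of all genes did. These were Ids (0.77), Arsa (0.33), Ctsb (0.33), Atp6ap1 (0.27), Atp6v0d1 (0.27), Man2b1 (0.23), Gm2a (0.20), Gaa (0.17) and Grn (0.17). In this last comparison the 11 olfactory bulb markers differed between the sexes too, with a median of -3.44. With their mean as a covariate 0 members and 0% of all genes differed. Their part in the other 2 sets was not tested beyond that covariate. With it 0 members differed under fluoxetine (0.871% of all genes) and 3 under lithium (1.03%). With only the groups compared in the fit, 7 members differed under fluoxetine (15.2%), 0 under lithium (0.0112%) and 0 for genotype under vehicle (0%).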

How the results depend on the processing

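The count of members called is given here by comparison, with the share of all genes called in brackets. The terms "male" and "sex difference" refer to heterozygous mice where a drug is named. A member result was counted as unchanged if a called member stayed called in the same direction. A member not called had to stay so and move by no more than its SE. Of the 157 member results, 157 were unchanged with a pseudocount of 5 and with no filter, 156 with a filter of 100, 152 with the replicate block, 147 with TMM factors, 144 with edgeR, 122 with quantile normalisation, 121 with array weights, 118 without heterozygous fluoxetine males 3 and 4, 88 with only the groups compared, 60 with the bulb covariate and 51 with the covariate and without these males. The cause of these changes was not tested.

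With the replicate number as a block the counts changed to 3 for lithium in males (0.391%) and 2 for genotype under fluoxetine in males (8.94%). This block moved no other count by over 1.5 times. Samples share only a number: in 0 of 14 comparisons did every same-numbered pair correlate above 0.1, and in 0 did every library correlate best with its own number. TMM factors gave 1 for lithium in heterozygous mice (0.514%) and 3 for genotype under vehicle (12.9%). Quantile normalisation gave 2 (0.609%) and 3 (12.3%) for these, 2 for fluoxetine against lithium (3.61%) and 3 for genotype under fluoxetine in males (8.78%). edgeR gave 1 for lithium in heterozygous mice (0.559%) and 3 for genotype under fluoxetine in males (10.8%). A filter of 100 gave 1 (0.678%) and 2 (12.4%) for these, and 10 for genotype under vehicle (20.3%).

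Array weights, which weight libraries by their fit, gave 8 for fluoxetine in wild-type mice (17.4%). For lithium they gave 5 in heterozygous (5.88%) and 2 in wild-type mice (1.17%). For genotype they gave 24 under vehicle (42.3%), 11 under lithium (23.3%) and 21 on average (41.5%). They gave 10 for the genotype difference in the fluoxetine effect (17.7%). Averaged over genotypes they gave 0 for fluoxetine (5.9%) and 11 for lithium (8.72%). For fluoxetine against lithium they gave 0 (0.285%). By sex they gave 11 for fluoxetine in females (21.7%), 19 for lithium in males (28%) and 21 for the sex difference under lithium (37.2%). They gave 19 for the sex difference of genotype under vehicle (38.3%) and 0 for genotype under fluoxetine in males (0.00559%). The bulb covariate gave 1 each for lithium in heterozygous (0.821%) and in wild-type mice (0.363%). It gave 0 for genotype under vehicle (0.0112%) and averaged (0.737%). It gave 2 for fluoxetine averaged (8.54%) and 3 for fluoxetine against lithium (8.53%). By sex it gave 7 for fluoxetine in males (15.8%), 3 for lithium in males (0.38%) and 3 for its sex difference (1.03%). It gave 0 for the sex difference under fluoxetine (0.871%), and 0 for genotype under vehicle in males (0%) and its sex difference (0%).

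Without heterozygous fluoxetine males 3 and 4 the counts were 0 for fluoxetine in heterozygous mice (0.425%), averaged (2.36%), against lithium (0.117%) and in males (2.44%). They were 0 for genotype under fluoxetine in males (0%) and 12 for genotype under vehicle (22.8%). They were 1 each for lithium in heterozygous (1.28%) and in wild-type mice (0.469%). They were 10 for lithium in males (5.07%), 11 for its sex difference (10.5%) and 15 for the sex difference of genotype (23.9%). With the covariate as well, they were 0 for fluoxetine in heterozygous mice (1.36%), against lithium (0.48%), in males (0.251%) and by sex (0.0168%). They were 1 for fluoxetine in wild-type mice (0.894%), and 2 each for lithium in heterozygous (2.52%) and wild-type mice (1.37%). Averaged, they were 2 for fluoxetine (5.17%) and 9 for lithium (8.2%). For genotype they were 0 under vehicle (0.0112%), averaged (0.285%), in males under vehicle (0%) and fluoxetine (0%), and by sex (0%). A fit on only the groups compared leaves fewer samples and takes the spread from those groups alone. It gave 0 for fluoxetine in heterozygous mice (0.0112%), averaged (1.4%), against lithium (0%) and in males (0%). It gave 2 for fluoxetine in wild-type mice (6.43%, beside 0.447% with all groups) and 7 for the sex difference under fluoxetine (15.2%). For lithium it gave 0 in males (0.00559%) and by sex (0.0112%). For genotype it gave 0 under vehicle (0.776%), by sex (0%) and in males under fluoxetine (0%), and 11 in males under vehicle (25.4%).

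Reversed values were those of Hexa under fluoxetine in males (0.0046 with array weights, 0.0195 without the 2 males and 0.0127 with the covariate as well), Cln3 in the sex difference under fluoxetine (-0.0396 with both), Atp6v1a there (0.0297, quantile), Psap in the sex difference under lithium (0.0085, quantile), Gaa for genotype in vehicle males (0.0018, quantile) and Cln3 there (-0.0255, covariate).

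Leaving out 1 library at a time gave 0 to 6 for fluoxetine in heterozygous mice (0 without fluoxetine male 3 or 4 among others), 0 in wild-type mice, 0 to 1 for lithium in heterozygous and 0 in wild-type mice, 0 to 6 for the genotype difference in the fluoxetine effect and 0 for that in the lithium effect. It gave 0 to 2 for fluoxetine and 1 to 4 for lithium averaged, and 0 to 2 for fluoxetine against lithium. For genotype it gave 0 to 16 under vehicle, 0 under lithium, 0 under fluoxetine and 8 to 14 averaged, and by sex under vehicle 10 to 26 in males (10 without heterozygous vehicle male 4), 0 in females and 0 to 17 for their difference. For fluoxetine it gave 14 to 24 in males, 0 to 1 in females and 13 to 20 for their difference. For lithium it gave 0 to 15 in males and 0 to 11 for the sex difference, and for genotype under fluoxetine in males 0 to 9. Shares of all genes are not given for these left-out libraries.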
